A study of Mus musculus with 8 samples.

Results

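The 47 genes described here encode the machinery that copies DNA in S phase, from the proteins that mark and license replication origins to the helicase, polymerases, sliding clamp, Okazaki fragment enzymes and nucleotide suppliers. They were chosen by name, with earlier results of these data known. Each gene was read from the array probe set annotated with its symbol alone, and where several such probe sets existed, from the one with the highest mean over the 8 arrays. Of the 47 listed genes, 46 had such a probe set, and all 46 passed the filter on dim probe sets, among 12529 genes that passed it and 18193 genes with a probe set of 1 symbol. Chaf1a, which encodes the large subunit of chromatin assembly factor 1, had none and was not analysed here.

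Replication starts at origins bound by the origin recognition complex, where Cdc6 and Cdt1 load the ring-shaped MCM helicase in G1. At the entry into S phase the kinase Cdc7 with its activator Dbf4, together with cyclin-dependent kinases, recruits Cdc45 and the GINS complex, which turn the loaded ring into an active helicase. Most genes of this machinery are transcribed in waves around the G1 to S transition, with E2F transcription factors as their best known regulators, and reprogramming to pluripotency is known to be accompanied by faster cycling.

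The arrays came from mouse cells of C57BL/6 background in a secondary reprogramming system, in which doxycycline induces the factors Oct4, Sox2, Klf4 and Myc (OSKM). The labels call them reprogramming cells and name no starting cell type. There were 4 groups of 2 arrays, named by treatment and day of reprogramming: CSA day 3, DMSO day 3, CSA day 6 and DMSO day 6. CSA is the usual abbreviation of cyclosporin A, a cyclophilin ligand that blocks calcineurin, the phosphatase that activates NFAT factors. The series title sets inhibition of that pathway against a control. The doxycycline, written in the labels as 2 mg/ml, was common to all 4 groups, as was a medium for mouse stem cells that held 15% serum and leukaemia inhibitory factor at 100 units/ml. CSA was labelled 10 mM and DMSO was its control. The design text calls the 2 arrays of each group independent biological repeats.

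Promoter sequence was set beside the arrays as a feature that did not enter the choice of genes. RefSeq windows on GRCm38.p6, from 250 bases before to 50 bases after an annotated transcription start, were found for 39 of the 47 genes. No window was listed for Ccne2, Gins1, Gins2, Gins4, Mcm4, Pole, Prim2 and Rfc2. Each window was searched on both strands for E2F letters (TTTCCCGC, TTTGGCGC, TTTCGCGC or TTTGCCGC). Of the 39 genes, 13 held E2F letters (33.3%), against 4.66% of 10130 genes tested on the arrays and 2.6% of all 27025 genes with a window. The letters TTTGAA, a cell cycle element called CHR, were held by 7 of the 39 genes (17.9%) and by 14.2% of the genes tested, and the CCAAT box by 23 (59.0%) and by 42.6%. The median GC content was 61.3% in the windows of the replication genes and 60.7% in those of all genes tested. E2F letters overlapped each other in 2 windows and CHR or CCAAT letters in 1.

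The windows of 4 MCM genes and of Cdt1 are shown because these genes fell with CSA at day 3 and their windows hold E2F letters, set in capitals. This choice leaves out genes where the 2 features part. Mcm2 fell at day 3 as well, and its window held 0 E2F words. Cdc6, Gins3, Orc1, Pola1, Pold1 and Pole2 hold E2F letters and did not pass the test at day 3. Sequences run 5′ to 3′ on the strand of the gene. The Mcm3 window lies at chr1:20820263-20820562 on the minus strand, the Mcm5 window at chr8:75109259-75109558 on the plus strand, and the Mcm6 window at chr1:128359656-128359955 on the minus strand. Of 2 windows of Mcm7, for 2 annotated starts, the one shown lies at chr5:138171834-138172133 on the minus strand, and the other, at chr5:138171217-138171516, held 0 E2F words. The Cdt1 window lies at chr8:122567765-122568064 on the plus strand.
Mcm3: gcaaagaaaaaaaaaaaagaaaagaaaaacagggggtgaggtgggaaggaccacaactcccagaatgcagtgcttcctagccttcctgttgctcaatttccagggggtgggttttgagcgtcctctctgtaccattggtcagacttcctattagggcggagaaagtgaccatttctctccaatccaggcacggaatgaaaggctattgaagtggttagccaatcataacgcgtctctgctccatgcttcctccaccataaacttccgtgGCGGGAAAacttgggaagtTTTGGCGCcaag
Mcm5: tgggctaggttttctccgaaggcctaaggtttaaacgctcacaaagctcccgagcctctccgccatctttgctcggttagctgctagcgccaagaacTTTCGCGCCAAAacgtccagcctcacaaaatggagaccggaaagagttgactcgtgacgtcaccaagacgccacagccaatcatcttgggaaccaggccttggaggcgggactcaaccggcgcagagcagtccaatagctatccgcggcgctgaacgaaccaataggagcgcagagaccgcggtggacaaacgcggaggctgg
Mcm6: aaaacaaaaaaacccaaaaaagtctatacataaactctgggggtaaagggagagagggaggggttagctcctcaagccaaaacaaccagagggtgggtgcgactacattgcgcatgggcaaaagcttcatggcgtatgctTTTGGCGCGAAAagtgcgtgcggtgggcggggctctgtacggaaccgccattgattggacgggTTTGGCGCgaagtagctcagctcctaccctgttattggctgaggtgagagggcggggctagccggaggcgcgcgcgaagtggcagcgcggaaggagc
Mcm7: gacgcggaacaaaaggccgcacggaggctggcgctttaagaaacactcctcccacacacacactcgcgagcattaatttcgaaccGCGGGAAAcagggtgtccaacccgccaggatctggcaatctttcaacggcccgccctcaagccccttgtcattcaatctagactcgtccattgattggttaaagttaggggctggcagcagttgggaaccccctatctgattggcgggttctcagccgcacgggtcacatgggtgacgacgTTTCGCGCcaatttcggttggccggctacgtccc
Cdt1: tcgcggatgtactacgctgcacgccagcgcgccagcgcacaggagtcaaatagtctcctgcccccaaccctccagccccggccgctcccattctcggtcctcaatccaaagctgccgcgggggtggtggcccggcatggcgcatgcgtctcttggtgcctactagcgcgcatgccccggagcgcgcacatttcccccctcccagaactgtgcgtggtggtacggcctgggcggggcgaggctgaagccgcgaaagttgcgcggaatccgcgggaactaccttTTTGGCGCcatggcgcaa
In Mcm5 the letters TTTCGCGC began 153 bases before the start, and TTTGGCGC, read on the other strand, overlapped them. Mcm6 had the same kind of overlapping pair beginning 110 bases before the start and a further TTTGGCGC 47 bases before it. In Mcm3, Mcm7 and Cdt1 the letters nearest the start lay after it. These matches describe the letters and do not show that a factor bound. At day 3, the median log2 difference between CSA and DMSO was -0.52 over the 13 measured genes with E2F letters. It was -0.47 over the 25 measured genes with a window and no such letters. At day 6 these medians were -0.17 and -0.02. For the day 6 difference minus the day 3 difference they were 0.29 with the letters and 0.50 without. From day 3 to day 6 they were -0.13 and 0.04 in CSA and -0.45 and -0.47 in DMSO. A link between the letters and these differences was not tested.

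Signals are given as deposited, on a log2 scale, so that a difference of 1 is a doubling, and a level is compared only within a probe set. The mean log2 signals of the replication genes ran from 5.56 (Tyms) to 13.47 (Pcna), 43 of 46 were above 8, and the filter stood at 5.37. Over all tested probe sets, arrays of 1 group correlated at 0.968 to 0.974 and arrays of the same day but other treatment at 0.957 to 0.963. Of the marker lists, all 6 epithelial and all 7 mesenchymal genes were measured. Among pluripotency genes Sox2, Nanog and Zfp42 were below the filter, as were Krt5 and Trp63 of the keratinocyte list, Ptprc of the haematopoietic list and Pecam1, Cdh5 and Tie1 of the endothelial list. Because the RNA was bulk RNA, fewer cells in S phase and fewer of these transcripts per cell cannot be told apart.

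At day 3 of reprogramming the replication genes were lower with CSA. Of 46 genes, 23 fell and 0 rose (adjusted p under 0.05, limma), and 23 did not pass the test. Of all genes tested, 5.52% fell and 7.14% rose in this comparison. All 46 differences were below 0, with a median of -0.49, against a median of 0 over all genes. In 41 genes both CSA arrays were below both DMSO arrays, and in 0 genes above. For all genes these shares were 28.3% below and 28.2% above. At an unadjusted p under 0.05, 36 genes were lower and 0 higher. Without the intensity trend in limma's variance prior, 9 of the 46 passed, all lower. Of all 12529 genes, 92 were then called lower and 182 higher, against 692 and 895 with the trend. The signals of the 46 genes were also summed off the log2 scale, so that bright genes weigh most. The log2 of this sum was 16.25 and 16.20 in the CSA arrays and 16.75 and 16.74 in the DMSO arrays.

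**Figure D1:**
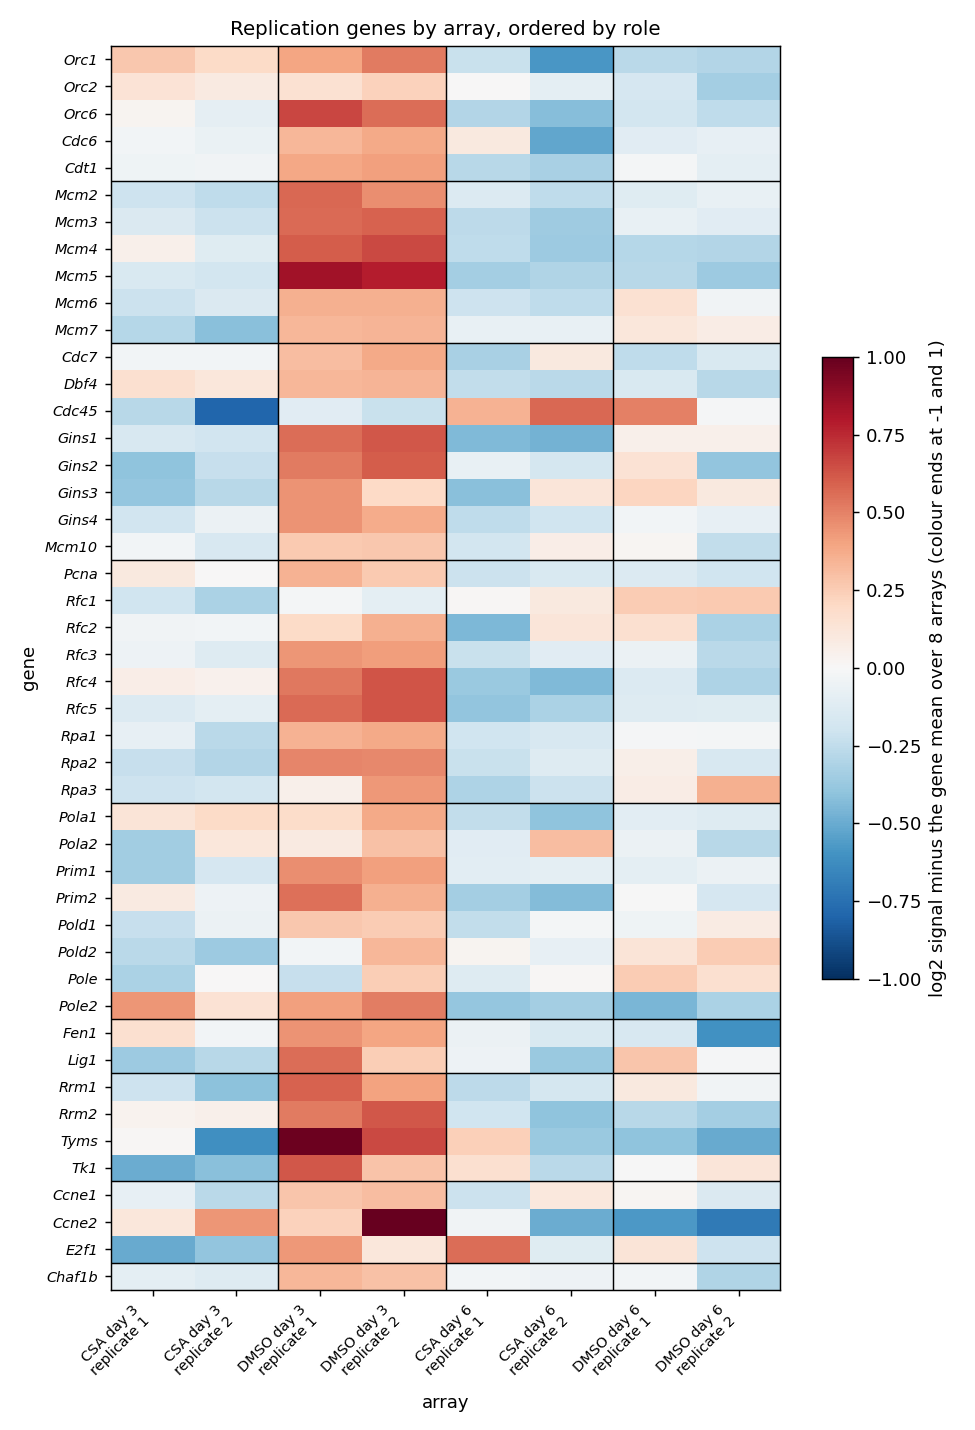
Log2 signal of each replication gene in each array, as the deviation from the gene's mean over the 8 arrays (colour scale from blue, lower, to red, higher). Rows are 46 genes ordered by role, with black lines between roles, and columns are the 8 arrays. The columns of DMSO day 3 are the reddest block. The log2 of their summed signal was 16.75 and 16.74, against 16.25 and 16.20 in CSA day 3.

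At day 6 few replication genes passed the test between the treatments. With CSA 4 of 46 genes fell (Cdt1, Mcm6, Gins1 and Rpa3) and 0 rose (Mcm5 rose with the mean of its probe sets, 0.47, adjusted p = 0.0430), and the median difference was -0.12, against -0.01 over all genes. Of all genes tested, 6.11% fell and 6.41% rose, so the number of replication genes called at day 6 is near that background and is not a result about them. At an unadjusted p under 0.05, 11 were lower and 0 higher. The count was 2 without the filter and 1 without the intensity trend. The arrays of the treatments were apart, with CSA lower, in 19 genes and, with CSA higher, in 4 (Orc2, Fen1, Tyms and Ccne2), against 30.2% and 27.8% of all genes. The log2 of the summed signal was 16.12 and 16.11 in CSA arrays and 16.27 and 16.19 in DMSO arrays. All 4 calls ended when 1 array was left out: Cdt1's and Rpa3's whichever day 6 array was dropped (0.0815 to 0.247 for Cdt1 and 0.0534 to 0.298 for Rpa3, as adjusted p), Mcm6's without either CSA array or DMSO replicate 1 (0.0714 to 0.237), and Gins1's without CSA replicate 2 or either DMSO array (0.0620 to 0.0819).

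**Figure D2:**
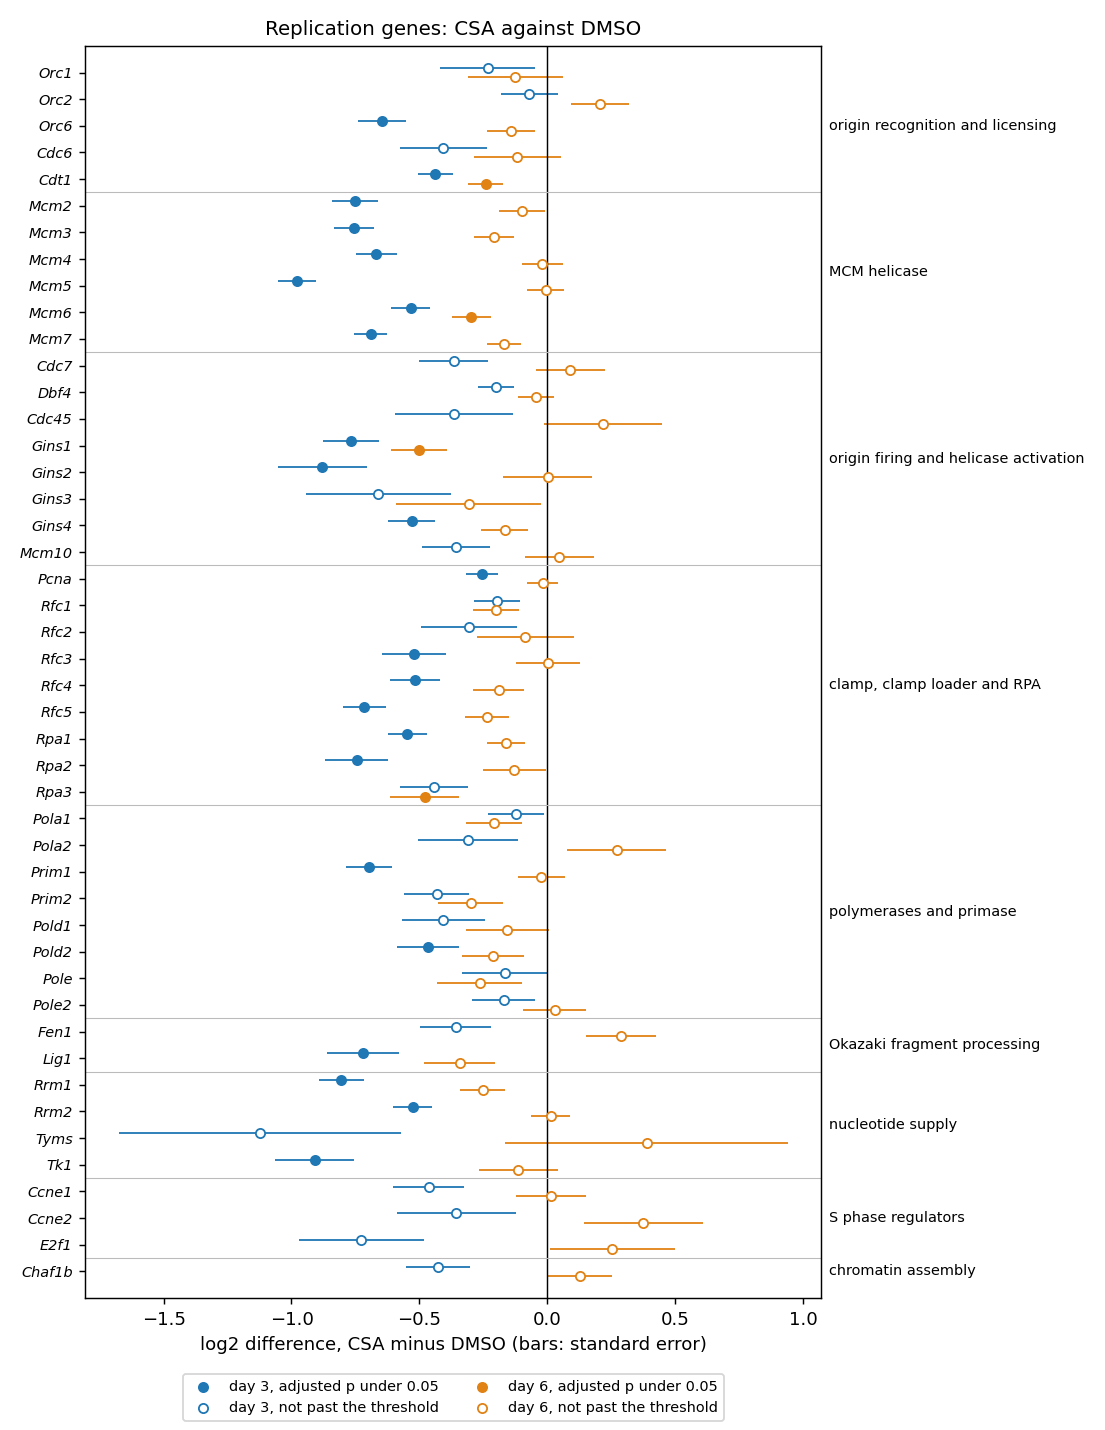
Log2 difference, CSA minus DMSO, of the 46 replication genes by role, at day 3 (blue) and day 6 (orange), with the standard error of limma as bars; filled points passed the threshold. All day 3 points lie left of 0, 23 of them filled, while 4 of the day 6 points are filled.

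The change in the CSA effect between the days was tested as an interaction, the day 6 difference minus the day 3 difference. It was above 0 for 42 of 46 genes, with a median of 0.43, against -0.01 over all genes, and passed the threshold for 8: Mcm2, Mcm3, Mcm4, Mcm5, Mcm7, Prim1, Rrm1 and Rrm2. Of all genes tested, 2.36% were called above 0 and 3.43% below 0 in this test. No replication gene was called below 0, and at an unadjusted p under 0.05 the counts were 25 above and 0 below. Without the intensity trend 0 of the 46 genes, and 0 of all genes, passed by limma, and 20 of the 46 had an unadjusted p under 0.05. Leaving out 1 array gave between 2 and 9 calls, the fewest without CSA day 3 replicate 2 and without DMSO day 6 replicate 2. The count was 4 without CSA day 3 replicate 1 and 5 without CSA day 6 replicate 1 or DMSO day 6 replicate 1.

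**Figure D3:**
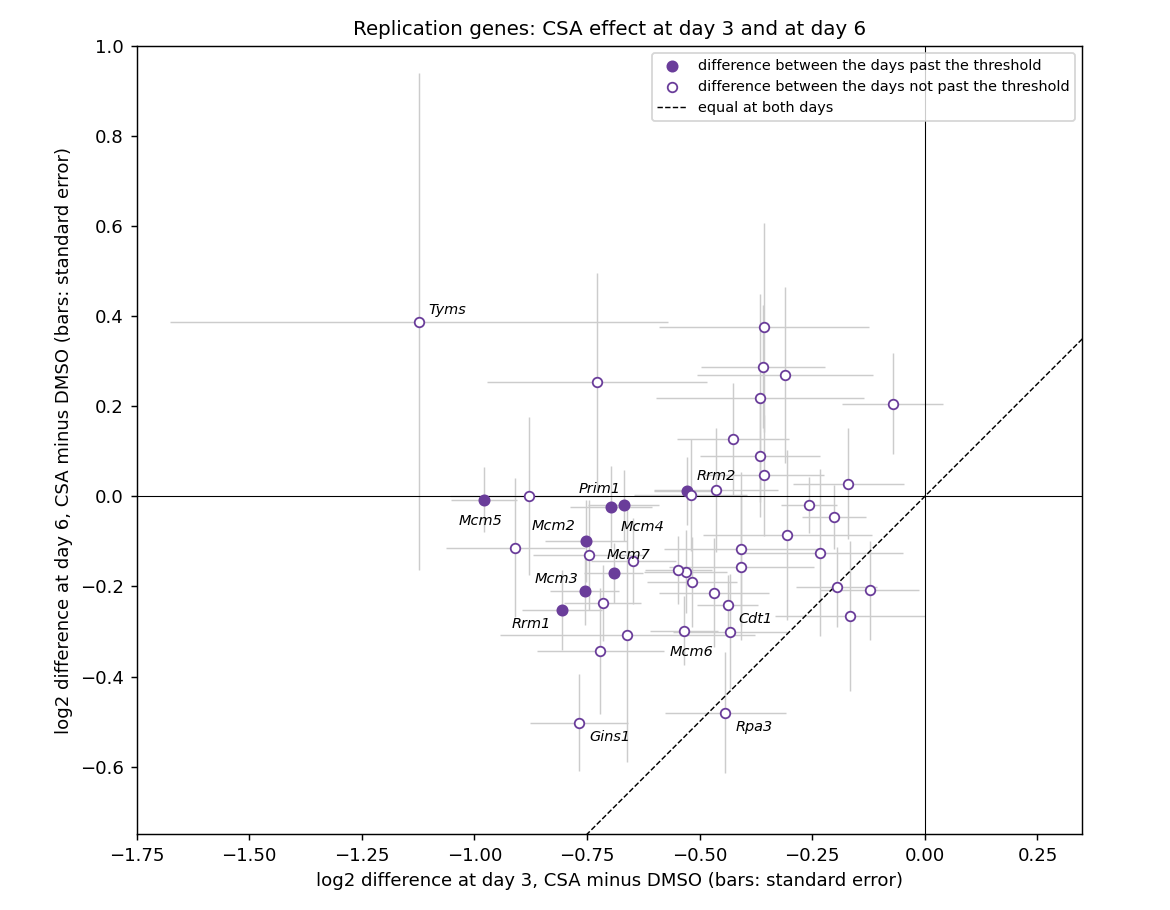
Log2 difference, CSA minus DMSO, at day 6 (vertical axis) against that at day 3 (horizontal axis), 1 point per replication gene with standard errors; the dashed line marks equal differences. Of 46 points, 42 lie above the line, and the 8 filled points passed the threshold for the difference between the days.

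The MCM genes, which encode the 6 subunits of the replicative helicase, all fell with CSA at day 3, with a median of -0.72. Mcm5 had log2 signals of 11.25 and 11.22 in CSA arrays at day 3, against 12.24 and 12.19 in DMSO arrays. Its arrays at day 6 read 11.06 and 11.10 with CSA and 11.13 and 11.04 with DMSO. The CSA level was thus 50.7% of the DMSO level at day 3 (log2 difference -0.98 ± 0.07 SE, adjusted p = 3.04e-05) and 99.5% at day 6 (-0.01 ± 0.07, adjusted p = 0.974). The interaction for Mcm5 was 0.97 ± 0.10 (adjusted p = 0.000914), which held when any 1 array was left out and ended without the trend (0.100). The day 6 value depended on the probe set and the scaling: it was above 0 under quantile normalization and in the other probe sets (0.32 ± 0.11 and 1.10 ± 0.50, adjusted p = 0.0929 and 0.210), and the mean of the 3 probe sets was called higher in CSA (0.47, 0.0430), with an interaction of 1.52.

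Mcm2, Mcm3 and Mcm4 fell at day 3 and passed the interaction. Mcm2 had log2 signals of 10.15 and 10.10 in CSA arrays at day 3 and 10.93 and 10.82 in DMSO arrays, and at day 6 10.22 and 10.10 in CSA arrays and 10.23 and 10.28 in DMSO arrays. Mcm3 had 10.94 and 10.87 in CSA arrays at day 3 and 11.65 and 11.67 in DMSO arrays, and at day 6 10.82 and 10.73 in CSA arrays and 11.01 and 10.97 in DMSO arrays. Mcm4 had 11.67 and 11.50 in CSA arrays at day 3 and 12.23 and 12.28 in DMSO arrays, and at day 6 11.37 and 11.26 in CSA arrays and 11.34 and 11.33 in DMSO arrays. In each of the 3 genes the DMSO day 3 arrays stood above all other arrays. The day 3 differences were -0.75 ± 0.09 for Mcm2, -0.75 ± 0.08 for Mcm3 and -0.67 ± 0.08 for Mcm4 (adjusted p = 0.000583, 0.000206 and 0.000504), and the day 6 differences were -0.10 ± 0.09, -0.21 ± 0.08 and -0.02 ± 0.08, none past the threshold. The interactions were 0.65 ± 0.13, 0.55 ± 0.11 and 0.65 ± 0.11 (adjusted p = 0.0188, 0.0193 and 0.0103). Mcm4's ended without CSA day 3 replicate 2 (0.0559), and those of Mcm2 and Mcm3 ended without either CSA day 3 array, CSA day 6 replicate 1 or either DMSO day 6 array (0.0531 to 0.0808 and 0.0522 to 0.0891). Mcm2's also ended with the mean of its probe sets (0.54, 0.0705). The Mcm3 probe sets disagreed in size: without those ending in _x_at or _s_at the day 3 difference was -0.48 (0.0209) and the interaction 0.27 (0.421), while the mean of all its probe sets gave an interaction of 0.79 (0.0104). At day 6 the other Mcm3 probe sets read between -0.21 and 0.54, none past the threshold.

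In Mcm7 and Mcm6, as in Mcm2 and Mcm3, both CSA arrays were below both DMSO arrays at day 6 as well. This held for 30.2% of all genes. Mcm7 had log2 signals of 12.13 and 12 in CSA arrays at day 3, against 12.75 and 12.76 in DMSO arrays, and 12.34 in both CSA arrays at day 6, against 12.53 and 12.49 in DMSO arrays. Its differences were -0.69 ± 0.07 at day 3 (adjusted p = 0.000131) and -0.17 ± 0.07 at day 6 (0.138), and the interaction was 0.52 ± 0.09 (0.0114), which ended without CSA day 3 replicate 2 (0.0633) and without DMSO day 6 replicate 2 (0.0579). Without probe sets ending in _x_at or _s_at that interaction was 0.38 (0.127), and the mean of the Mcm7 probe sets was called lower at day 6 (-0.25, 0.0428). Mcm6 had 11.87 and 11.94 in CSA arrays at day 3, against 12.44 in both DMSO arrays, and 11.88 and 11.83 in CSA arrays at day 6, against 12.24 and 12.05 in DMSO arrays. It fell at both days, with differences of -0.53 ± 0.08 at day 3 (adjusted p = 0.00140) and -0.30 ± 0.08 at day 6 (0.0308, a call that ended without single arrays as given above), and its interaction of 0.24 ± 0.11 did not pass (0.264). The arrays of the treatments did not overlap in any of the 6 MCM genes at day 3, and they overlapped in Mcm4 and Mcm5 at day 6.

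**Figure D4:**
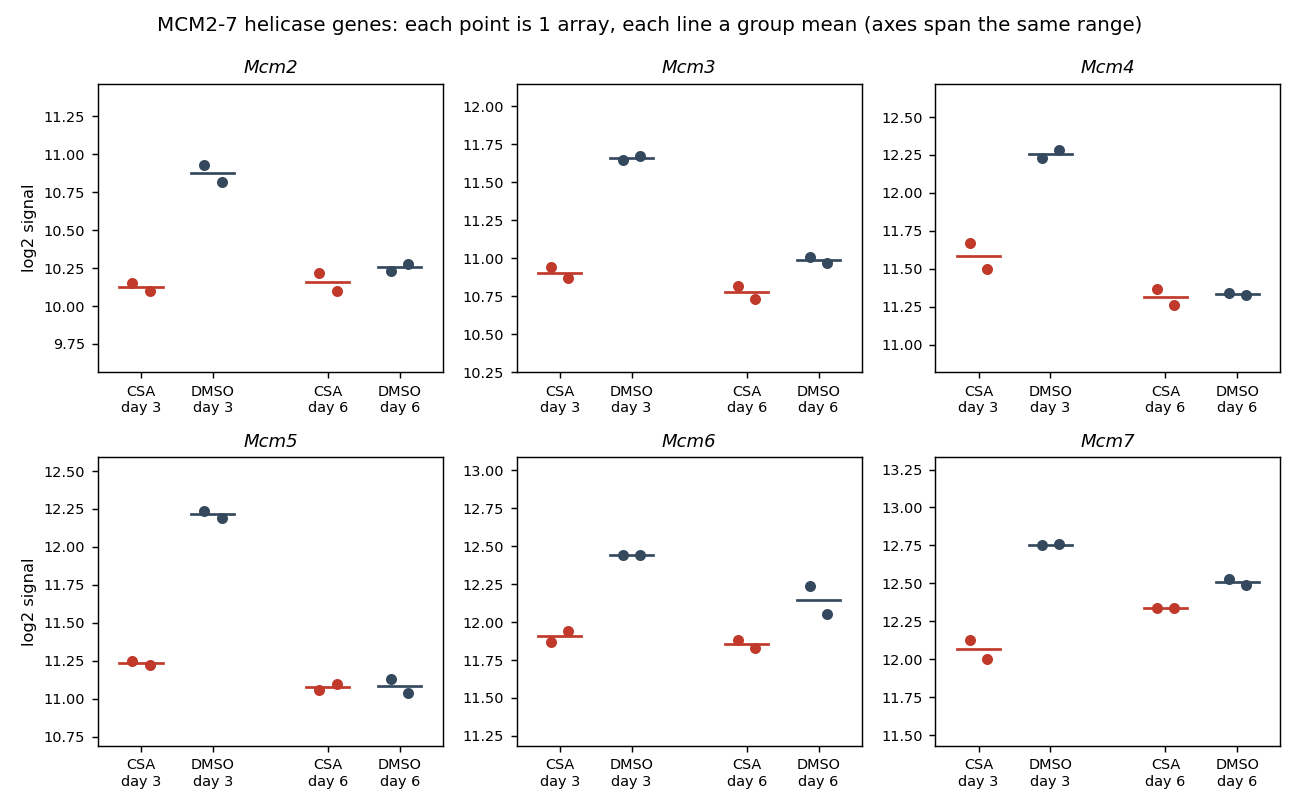
Log2 signal of the 6 MCM genes, 1 panel per gene, with 1 point per array and a line at the mean of each group's 2 arrays (CSA red, DMSO dark blue; each vertical axis spans the same number of log2 units). In every panel the DMSO day 3 arrays are the highest, such as 12.24 and 12.19 for Mcm5, against 11.25 and 11.22 in CSA day 3.

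Of the 5 genes that recognise and license origins, 2 fell at day 3. Orc6, a subunit of the origin recognition complex, had 10.36 and 10.24 in CSA arrays at day 3 and 11 and 10.89 in DMSO arrays, and at day 6 10.04 and 9.91 in CSA arrays and 10.15 and 10.08 in DMSO arrays. Cdt1, which loads the MCM ring with Cdc6, had 11.73 and 11.74 in CSA arrays at day 3 and 12.16 and 12.19 in DMSO arrays, and at day 6 11.50 and 11.45 in CSA arrays and 11.76 and 11.68 in DMSO arrays. Both genes were lower in every CSA array than in every DMSO array of the same day. Orc6 differed by -0.65 ± 0.10 at day 3 (adjusted p = 0.00179) and -0.14 ± 0.10 at day 6 (0.410). Cdt1 differed by -0.44 ± 0.07 at day 3 (0.00244) and -0.24 ± 0.07 at day 6 (0.0469), where the call was lost without any 1 array, in a fit of only the 4 day 6 arrays, without the filter, without the trend and as the mean of its probe sets. Orc2, another subunit, had 9.71 and 9.66 in CSA arrays at day 3 and 9.72 and 9.80 in DMSO arrays. At day 6 it read 9.57 and 9.47 in CSA arrays and 9.40 and 9.23 in DMSO arrays, and neither difference passed (-0.07 ± 0.11 and 0.21 ± 0.11, adjusted p = 0.772 and 0.299). Orc1 and Cdc6 differed by -0.23 and -0.41 at day 3, neither past the threshold.

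Of the 8 genes that fire origins and activate the helicase, 3 GINS subunits fell at day 3. Gins1 had 9.22 and 9.19 in CSA arrays at day 3 and 9.94 and 10.0 in DMSO arrays, and at day 6 8.94 and 8.91 in CSA arrays and 9.43 in both DMSO arrays. It was the gene with the lowest day 6 difference of all 46, -0.50 ± 0.11 (adjusted p = 0.0136), after -0.77 ± 0.11 at day 3 (0.00131). Gins4 had 10.08 and 10.21 in CSA arrays at day 3 and 10.72 and 10.64 in DMSO arrays, and at day 6 10.02 and 10.07 in CSA arrays and 10.24 and 10.19 in DMSO arrays. Its difference was -0.53 ± 0.09 at day 3 (0.00454), a call that ended without CSA day 3 replicate 1 (0.0523), and -0.17 ± 0.09 at day 6 (0.306). Gins2 fell by 0.879 ± 0.175 at day 3 (0.00917), a call that ended without CSA replicate 1 (0.0766) or DMSO replicate 2 (0.0537). The kinase pair did not pass: Cdc7 differed by -0.37 at day 3, and Dbf4 had 11.92 and 11.87 in CSA arrays and 12.09 and 12.10 in DMSO arrays at day 3 (-0.20 ± 0.07, adjusted p = 0.107). At day 6 Dbf4 had 11.51 and 11.49 in CSA arrays and 11.61 and 11.48 in DMSO arrays, which overlapped. Cdc45, the cofactor that joins MCM and GINS in the active helicase, varied between replicates, with 7.81 and 7.29 in CSA arrays and 7.97 and 7.86 in DMSO arrays at day 3. At day 6 Cdc45 had 8.43 and 8.66 in CSA arrays and 8.59 and 8.07 in DMSO arrays, and it passed no test of CSA against DMSO (adjusted p = 0.390 and 0.637). Gins3 and Mcm10 did not pass at either day.

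Of the 9 genes of the sliding clamp, its loader RFC and the single-strand binding protein RPA, 6 fell at day 3. Rfc5 had 10.31 and 10.35 in CSA arrays at day 3 and 11.01 and 11.08 in DMSO arrays, and at day 6 10.05 and 10.13 in CSA arrays and 10.32 and 10.33 in DMSO arrays. Rpa1, the large RPA subunit, had 11.96 and 11.77 in CSA arrays at day 3 and 12.39 and 12.42 in DMSO arrays, and at day 6 11.84 and 11.88 in CSA arrays and 12.03 and 12.02 in DMSO arrays. Rfc4 had 10.19 and 10.17 in CSA arrays at day 3 and 10.65 and 10.75 in DMSO arrays, and at day 6 9.75 and 9.68 in CSA arrays and 9.99 and 9.82 in DMSO arrays. In these 3 genes the CSA arrays were the lower ones at both days, by -0.71 ± 0.08, -0.55 ± 0.07 and -0.52 ± 0.10 at day 3 (adjusted p = 0.000523, 0.00111 and 0.00754) and by -0.24, -0.16 and -0.19 at day 6, none past the threshold. Rpa2 and Rfc3 fell too (-0.75 ± 0.12 and -0.52 ± 0.12, adjusted p = 0.00345 and 0.0227). Pcna, which encodes the sliding clamp itself and had the highest signal of all, fell by 0.257 ± 0.062 (0.0238), to 83.7% of the DMSO level. The Rfc3 call ended without any 1 of the 4 arrays (0.0787 to 0.139), the Pcna call without either CSA array or DMSO replicate 1 (0.0634 to 0.189), and the Rfc4 call without either CSA array (0.0513 and 0.0629).

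Rpa3 and Rfc1 had like differences at both days. Rpa3, the small RPA subunit, had 9.92 and 9.94 in CSA arrays at day 3 and 10.18 and 10.56 in DMSO arrays, and at day 6 9.82 and 9.91 in CSA arrays and 10.20 and 10.48 in DMSO arrays. Its differences were -0.44 ± 0.13 (adjusted p = 0.0633) and -0.48 ± 0.13 (0.0458), and the interaction was -0.04 ± 0.19 (0.944). Without DMSO day 3 replicate 1 the day 3 difference passed too (-0.63, 0.0204). Rfc1, the large subunit of the loader, had 10.30 and 10.18 in CSA arrays at day 3 and 10.48 and 10.40 in DMSO arrays, and at day 6 10.51 and 10.59 in CSA arrays and 10.75 and 10.76 in DMSO arrays. Its difference was -0.20 ± 0.09 at each day, which did not pass (0.208 and 0.193), and every array was higher at day 6 than at day 3 within each treatment. Rfc2 did not pass at either day.

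Among the 8 genes of the DNA polymerases and primase, 2 fell at day 3 and 0 at day 6. Prim1, the catalytic primase subunit, had 10.09 and 10.27 in CSA arrays at day 3 and 10.90 and 10.85 in DMSO arrays, and at day 6 10.33 and 10.34 in CSA arrays and 10.34 and 10.38 in DMSO arrays. The gap of -0.70 ± 0.09 at day 3 (adjusted p = 0.000855) was -0.02 ± 0.09 at day 6 (0.917). The interaction of 0.67 ± 0.13 (0.0162) ended without CSA day 3 replicate 1 (0.0807) and without either DMSO day 6 array (0.0646 and 0.0569), and with the mean of the Prim1 probe sets (0.40, 0.146). Pold2, an accessory subunit of polymerase delta, had 10.03 and 9.94 in CSA arrays at day 3 and 10.27 and 10.63 in DMSO arrays, and at day 6 10.33 and 10.22 in CSA arrays and 10.43 and 10.55 in DMSO arrays. Its fall of -0.47 ± 0.12 at day 3 (0.0321) ended without either CSA array (0.104 and 0.180) or without DMSO replicate 2 (0.193). Prim2, the regulatory primase subunit, had 9.34 and 9.20 in CSA arrays at day 3 and 9.80 and 9.61 in DMSO arrays, and at day 6 8.91 and 8.82 in CSA arrays and 9.25 and 9.08 in DMSO arrays. Its arrays stood apart at both days, but the differences of -0.43 ± 0.13 and -0.30 ± 0.13 did not pass (0.0547 and 0.176). Pola1, the catalytic subunit of polymerase alpha, had 9.89 and 9.95 in CSA arrays at day 3 and 9.94 and 10.14 in DMSO arrays, and at day 6 9.51 and 9.36 in CSA arrays and 9.65 and 9.63 in DMSO arrays. Pole2, a subunit of polymerase epsilon, had 10.10 and 9.80 in CSA arrays at day 3 and 10.07 and 10.17 in DMSO arrays, and at day 6 9.27 and 9.32 in CSA arrays and 9.20 and 9.34 in DMSO arrays. The day 3 arrays of the treatments overlapped in both Pola1 and Pole2, as they did in Pola2 and Pole, and 4 of the 5 overlaps among the 46 genes at day 3 were in this role group.

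Of the 2 genes that process Okazaki fragments, Lig1 fell at day 3 and Fen1 did not pass. Lig1, DNA ligase 1, had 10.12 and 10.21 in CSA arrays at day 3 and 11.04 and 10.73 in DMSO arrays, and at day 6 10.43 and 10.11 in CSA arrays and 10.76 and 10.47 in DMSO arrays. It fell by 0.72 ± 0.14 at day 3 (adjusted p = 0.00832), which ended without CSA replicate 1 (0.0700) or DMSO replicate 1 (0.0592). Fen1, the flap endonuclease, had 10.34 and 10.15 in CSA arrays at day 3 and 10.63 and 10.57 in DMSO arrays, and at day 6 10.12 and 10.03 in CSA arrays and 10.02 and 9.57 in DMSO arrays. Its differences of -0.36 ± 0.14 and 0.29 ± 0.14 did not pass (0.133 and 0.232), while its other probe set did at day 3 (-0.48 ± 0.10, adjusted p = 0.0115). With the mean of the Fen1 probe sets, and without those ending in _x_at or _s_at, its interaction passed as well (0.69, 0.0123, and 0.73, 0.0144).

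Of the 4 nucleotide supply genes 3 fell at day 3. The median of -0.86 was the lowest of the 9 role groups, and it includes Tyms, which stood near the filter. Rrm1 and Rrm2 encode the large and small subunits of ribonucleotide reductase, which makes deoxynucleotides. Rrm1 had 12.48 and 12.28 in CSA arrays at day 3 and 13.28 and 13.09 in DMSO arrays, and at day 6 12.43 and 12.51 in CSA arrays and 12.79 and 12.65 in DMSO arrays. Rrm2 had 12.82 and 12.83 in CSA arrays at day 3 and 13.30 and 13.40 in DMSO arrays, and at day 6 12.58 and 12.38 in CSA arrays and 12.50 and 12.44 in DMSO arrays. At day 6 the arrays of the treatments overlapped in Rrm2, while both CSA arrays were below both DMSO arrays in Rrm1. The day 3 falls were -0.81 ± 0.09 and -0.53 ± 0.07 (adjusted p = 0.000350 and 0.00141), and the interactions 0.55 ± 0.13 and 0.54 ± 0.11 (0.0348 and 0.0181). The Rrm1 interaction ended in 6 of 8 leave-one-out fits, that is without CSA day 3 replicate 2, either CSA day 6 array, DMSO day 3 replicate 1 or either DMSO day 6 array (0.0588 to 0.135). The Rrm2 interaction ended without either CSA day 3 array or either DMSO day 6 array (0.0508 to 0.0815). Rrm1 had 2 other tested probe sets. One was called lower at day 6 (-0.24 ± 0.07, adjusted p = 0.0361), where the probe set used here was not (-0.25 ± 0.09, 0.107), and the other, with a mean log2 signal of 5.79, passed at neither day. The mean of the 3 ended Rrm1's call at day 3 (-0.58, 0.0552), in the interaction (0.41, 0.381) and in the DMSO course (-0.34, 0.127).

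Tk1, the thymidine kinase of S phase, had 9.20 and 9.28 in CSA arrays at day 3 and 10.32 and 9.98 in DMSO arrays, and at day 6 9.86 and 9.43 in CSA arrays and 9.69 and 9.82 in DMSO arrays. Its fall of -0.91 ± 0.15 at day 3, to 53.2% of the DMSO level (adjusted p = 0.00404), was followed by overlapping arrays at day 6 (-0.11 ± 0.15, 0.728). Its interaction of 0.80 ± 0.22 did not pass (0.0686), but did without CSA day 6 replicate 2 (0.0361) or DMSO day 3 replicate 2 (0.0477). Tyms, thymidylate synthase, was the dimmest gene, and its day 3 difference of -1.12 ± 0.55 did not pass (0.250). The probe set used had a mean log2 signal of 5.56, near the filter. A further probe set, annotated with Tyms among several symbols, was left out by the rule on symbols. The low signal and the test therefore describe the probe set used.

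The 3 genes that govern S phase entry did not pass the test at either day. Ccne1, cyclin E1, had 9.25 and 9.06 in CSA arrays at day 3 and 9.61 and 9.64 in DMSO arrays, and at day 6 9.12 and 9.44 in CSA arrays and 9.35 and 9.19 in DMSO arrays. E2f1, the transcription factor, had 7.48 and 7.59 in CSA arrays at day 3 and 8.42 and 8.10 in DMSO arrays, and at day 6 8.54 and 7.86 in CSA arrays and 8.11 and 7.78 in DMSO arrays. Both were lower in each CSA array at day 3, by -0.46 ± 0.14 and -0.73 ± 0.24 (adjusted p = 0.0588 and 0.0910). Ccne1's other probe set was called lower at day 3 (-0.50 ± 0.13, 0.0334). Ccne2, cyclin E2, had 9.69 and 10.02 in CSA arrays at day 3 and 9.81 and 10.61 in DMSO arrays, and at day 6 9.54 and 9.08 in CSA arrays and 9.0 and 8.87 in DMSO arrays. Its DMSO day 3 arrays were the farthest apart, and neither difference passed (-0.36 ± 0.23 and 0.37 ± 0.23, adjusted p = 0.410 and 0.373). Without DMSO day 3 replicate 1 its day 3 difference (-0.76, 0.0494) and its interaction (1.14, 0.0438) passed. Chaf1b, the middle subunit of chromatin assembly factor 1, had 9.12 and 9.09 in CSA arrays at day 3 and 9.55 and 9.51 in DMSO arrays, and at day 6 9.19 and 9.17 in CSA arrays and 9.19 and 8.92 in DMSO arrays. Its CSA arrays were lower at day 3 only, and the difference of -0.43 ± 0.13 did not pass (0.0551). Chaf1b had 1 tested probe set. In the limma fit that averaged the probe sets of other genes, the same difference passed (0.0407), so no further probe set of Chaf1b entered.

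Other probe sets of these genes and genes of later cell cycle phases were also lower with CSA at day 3. The 23 called genes had 23 other tested probe sets, of which 19 were also called lower, 0 were called higher and 23 had a difference below 0. Of the markers of G2 and mitosis, 9 of 9 tested genes fell at day 3 with CSA (median -0.62), among them Aurka (-1.07 ± 0.09), Cdk1 (-0.91 ± 0.09) and Plk1 (-0.82 ± 0.10), and 4 of 9 fell at day 6. The log2 of their summed signal was 14.18 and 14.15 in CSA arrays and 14.71 and 14.75 in DMSO arrays at day 3. At day 6 it was 14.17 and 14.19 in CSA arrays and 14.52 and 14.54 in DMSO arrays. Of the epithelial markers, 4 of 6 rose with CSA at day 3 and 3 of 6 fell at day 6, and of the mesenchymal markers 3 of 7 rose at day 3 and 2 at day 6. Others went the opposite way at an unadjusted p under 0.05 by limma. These were 2 epithelial markers lower at day 3 and 1 higher at day 6, and 1 mesenchymal marker lower at day 3 and 2 lower at day 6. Of the 4 keratinocyte markers tested, Krt14 and Krt1 rose at day 3. Of the 4 pluripotency markers tested, 0 passed at day 3, and at day 6 1 fell and 0 rose. The shares over all genes tested were 5.52% lower and 7.14% higher at day 3, and 6.11% and 6.41% at day 6. The log2 of the summed signal at day 3 was 14.68 in both CSA arrays and 14.32 and 14.40 in DMSO arrays for the epithelial list. Most of that sum was Krt8, which read 14.09 and 14.04 in CSA arrays and 13.66 and 13.78 in DMSO arrays. For the mesenchymal list the log2 of the sum was 14.89 and 14.80 in the arrays of either treatment. Most of it was Vim, at 14.40 and 14.30 in CSA arrays and 14.59 and 14.49 in DMSO arrays. For the keratinocyte list it was 12.68 and 12.78 in CSA arrays and 12.16 and 12.12 in DMSO arrays. The part of any other cell type or of cell cycle phase in the replication gene differences was not tested.

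The day course was read within each treatment, as day 6 minus day 3. In CSA 11 of 46 genes fell and 3 rose (Mcm7, Rfc1 and Cdc45), with a median of -0.07, against 0.08 over all genes, of which 15.8% fell and 20.2% rose. In DMSO 31 genes fell and 1 rose (Rfc1), with a median of -0.47, against 0.08 over all genes, of which 19.6% fell and 26.1% rose. In CSA both day 6 arrays were below both day 3 arrays in 20 genes and above in 10, against 29.4% and 39.7% of all genes. In DMSO they were below in 38 and above in 2, against 31.8% and 41.2% of all genes. Without CSA day 3 replicate 1, CSA day 3 replicate 2 or CSA day 6 replicate 2 the CSA count of calls was 8, 7 or 9, against 14 with all arrays, and without the intensity trend it was 6. Without DMSO day 6 replicate 2 the DMSO count was 22, against 32, and the calls of Chaf1b, Gins2, Mcm6, Mcm7, Mcm10, Orc2, Pola1, Prim2, Rfc1 and Rpa2 ended (0.0511 to 0.284). The test of the difference between the courses is the interaction given above, since it is the same contrast.

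**Figure D5:**
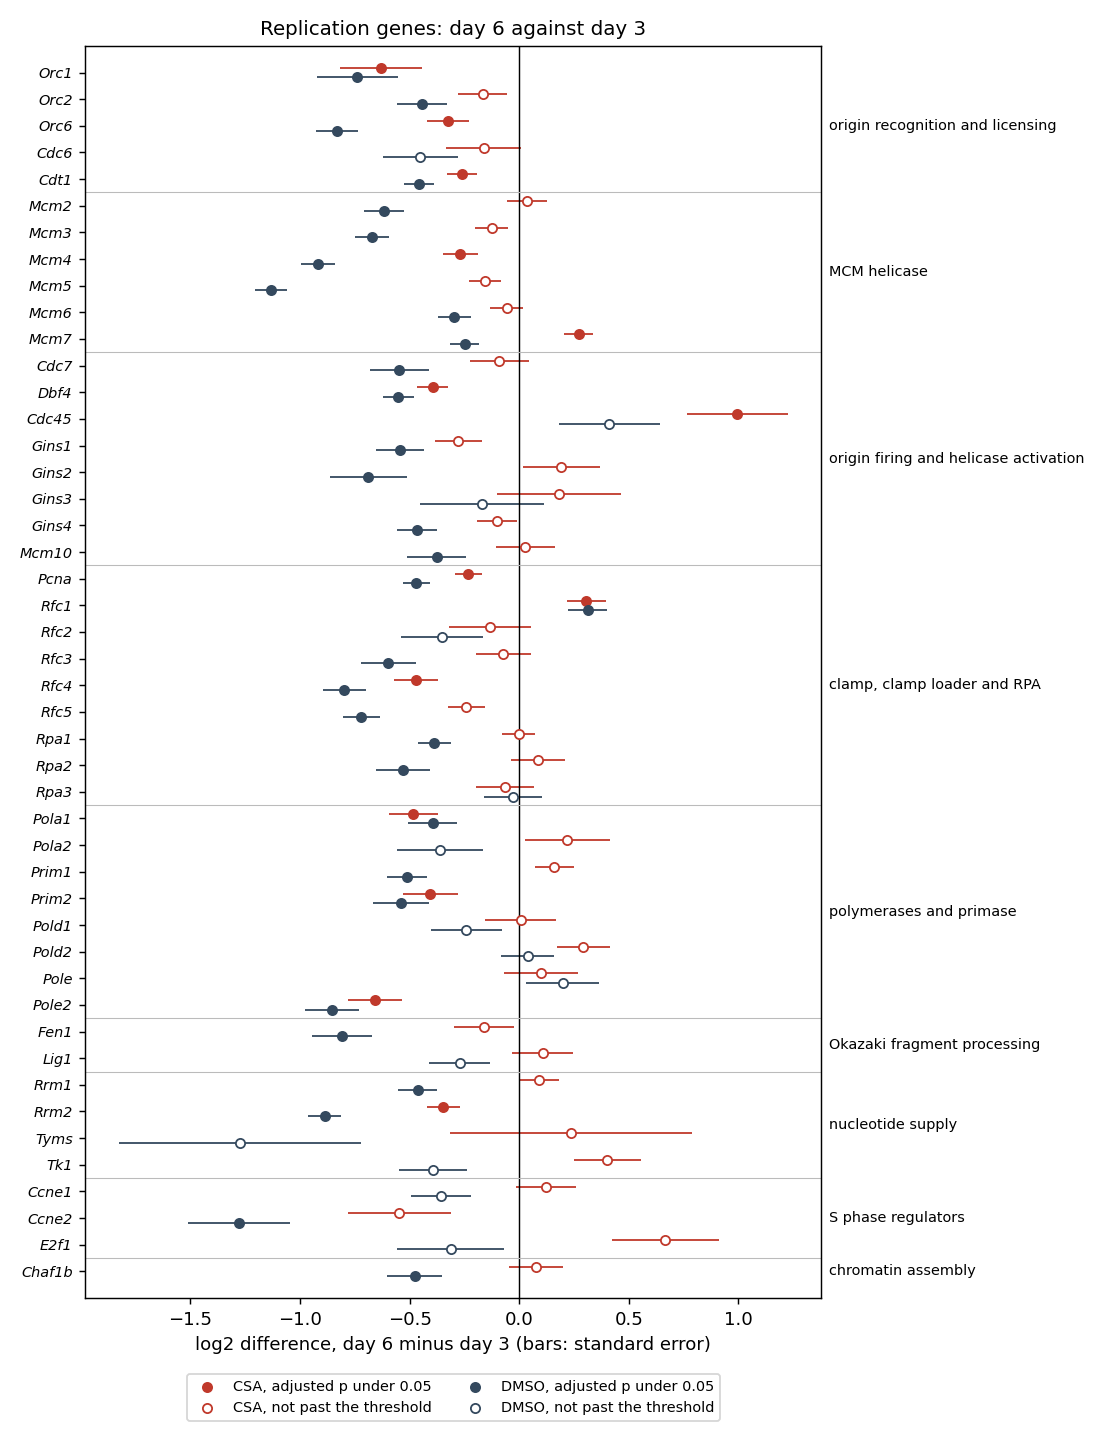
Log2 difference, day 6 minus day 3, of the 46 replication genes by role, in CSA (red) and in DMSO (dark blue), with the standard error of limma as bars; filled points passed the threshold. In CSA 11 filled points lie left of 0 and 3 right of it, and in DMSO 31 lie left and 1 right.

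The scaling of the arrays moved the day courses. Quantile normalization moved the median over all genes by -0.10 in CSA and by -0.11 in DMSO. Relative to that median, the replication genes stood at -0.15 in CSA and -0.55 in DMSO as deposited, and at -0.12 in CSA and -0.56 in DMSO after quantile normalization. With it 11 genes changed sign in CSA, none of them called, and Pold2 did in DMSO. The calls lost under it were those of Mcm4, Pcna, Cdt1 and Rrm2 in CSA and of Mcm6 and Mcm7 in DMSO, while calls were added for Gins1, Rfc5 and Rrm1 in CSA (Rrm1 higher, 0.25, adjusted p = 0.0381) and for Ccne1, Cdc6, Pola2, Pold1 and Tk1 in DMSO.

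Of the 6 MCM genes, Mcm4 fell in CSA (-0.27 ± 0.08, adjusted p = 0.0239), a call that ended without CSA day 3 replicate 1 (0.206) or CSA day 6 replicate 2 (0.130). Mcm7 rose in CSA (0.27 ± 0.07, 0.00894), which ended without CSA day 3 replicate 2 (0.0923). In DMSO all 6 fell, with differences between -1.13 ± 0.07 for Mcm5 (8.68e-07) and -0.25 ± 0.07 for Mcm7 (0.01). Mcm6 and Mcm7 lost that call without DMSO day 6 replicate 2 (0.106 and 0.0716), and Mcm7 without probe sets ending in _x_at or _s_at (-0.07, 0.581). Orc6 fell in both (-0.33 ± 0.10 in CSA, adjusted p = 0.0231, and -0.83 ± 0.10 in DMSO, 4.26e-05), and the CSA call ended without CSA day 3 replicate 1 (0.154) or CSA day 6 replicate 2 (0.125). Cdt1 fell in both too (-0.26 ± 0.07 in CSA, 0.0135, and -0.46 ± 0.07 in DMSO, 0.000269), the CSA call ending without either CSA day 3 array or CSA day 6 replicate 2 (0.0676 to 0.0704) and with the mean of its probe sets (-0.17, 0.113).

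Dbf4, Orc1, Pola1, Pole2 and Prim2 fell in both day courses and were not called for CSA against DMSO at either day. Pole2 fell by 0.656 ± 0.123 in CSA (adjusted p = 0.0021), and its difference in DMSO was -0.85 ± 0.12 (0.000213). For Dbf4 the differences were -0.40 ± 0.07 in CSA (0.00166), which ended with the mean of its probe sets (-0.22, 0.295), and -0.55 ± 0.07 in DMSO (9.77e-05). The CSA calls of Orc1 (-0.63 ± 0.18, 0.0233) and Prim2 (-0.41 ± 0.13, 0.0313) ended in 3 and 4 of 4 fits that left out a CSA array (0.0749 to 0.145 and 0.0629 to 0.175), and with the mean of their probe sets (0.372 and 0.146). In DMSO Orc1 differed by -0.74 ± 0.18 (0.00756), which ended with the mean of its probe sets (-0.34, 0.225), and Prim2 by -0.54 ± 0.13 (0.00533). For Pola1 they were -0.48 ± 0.11 in CSA (0.00674), a call that ended without CSA day 3 replicate 2 (0.0505), and -0.40 ± 0.11 in DMSO (0.0137), which ended without DMSO day 3 replicate 2 or either DMSO day 6 array (0.0538 to 0.0985). Rfc4, also lower with CSA at day 3, fell in both courses (-0.47 ± 0.10 in CSA, 0.0041, and -0.80 ± 0.10 in DMSO, 7.15e-05). Ccne2 had the lowest DMSO difference of the 46 genes, -1.28 ± 0.23 (0.00108), and did not pass in CSA (-0.55 ± 0.23, 0.100).

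Against the majority, Rfc1 rose by 0.31 ± 0.09 in each treatment (adjusted p = 0.0222 in CSA and 0.0151 in DMSO). The CSA call ended without CSA day 3 replicate 2 (0.152) or CSA day 6 replicate 2 (0.110), and the DMSO call without DMSO day 3 replicate 2 or either DMSO day 6 array (0.0636 to 0.0751). With the mean of the Rfc1 probe sets both calls ended (0.07, 0.530, in CSA and 0.19, 0.0884, in DMSO). Cdc45 rose by 0.995 ± 0.23 in CSA (0.00729), where its day 3 arrays were the lowest of the 8, and its difference of 0.41 ± 0.23 in DMSO did not pass (0.182). The CSA call ended without CSA day 3 replicate 2 (0.0684) or CSA day 6 replicate 2 (0.0565), and the mean of the Cdc45 probe sets gave -0.12 (0.789).

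The day 3 effect of CSA and the DMSO day course share the DMSO day 3 arrays, so their values stand side by side here and are not compared. For Mcm5 the CSA difference at day 3 was -0.98 and the DMSO day course -1.13, and for Rrm2 they were -0.53 and -0.89. For Tk1, Lig1 and Pold2 the CSA differences at day 3 were -0.91, -0.72 and -0.47, and the DMSO day courses, none of which passed, were -0.39, -0.27 and 0.04. The courses of the treatments share no array, but limma's estimate of the spread is common to all 8 arrays. The 11 genes that fell in CSA were among the 31 of 46 that fell in DMSO. The share of such an overlap over all genes was not taken.

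Lists of 75 further replication genes, of which 73 were tested, were read beside these. With CSA at day 3, 17 fell and 1 rose (Atr, a checkpoint kinase), with a median of -0.26, at day 6 9 fell and 0 rose, and 4 passed the interaction. In 9 tested genes of replication-coupled chromatin, 7 fell at day 3, including the histone chaperone Nasp (-0.72 ± 0.08, adjusted p = 0.000451), the remodeller Hells (-0.72 ± 0.09, 0.000729) and the histone-binding protein Rbbp4 (-0.34 ± 0.06, 0.00404). Of the nucleotide genes, Dut, which removes dUTP, fell by 0.718 ± 0.075 at day 3 (0.000234) and had an interaction of 0.80 ± 0.11 (0.00261). Of the cyclin, kinase and ubiquitin ligase genes, Ccna2, cyclin A2, and Skp2, a ligase subunit, fell (-0.64 ± 0.09 and -0.61 ± 0.10, adjusted p = 0.00146 and 0.0028). Of the origin and fork genes, 3 of 16 fell, among them Gmnn, the inhibitor of Cdt1 (-0.48 ± 0.09, 0.00881). Of 12 genes of the E2F and pocket protein families 0 passed at day 3 by limma, with 4 lower and 0 higher at an unadjusted p under 0.05, where Rb1 had the smallest p (-0.23 ± 0.07, adjusted p = 0.0663), and Rb1 fell at day 6 (-0.40 ± 0.07, 0.00441). From day 3 to day 6, 14 of the 73 fell and 9 rose in CSA, and 27 fell and 7 rose in DMSO. The shares over all genes were 5.52% lower and 7.14% higher at day 3, 6.11% and 6.41% at day 6, 15.8% and 20.2% in the CSA course and 19.6% and 26.1% in the DMSO course, and the CSA course counts are read as no result about these lists.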

How the data were processed

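RNA of the 8 samples was measured on Affymetrix 3' expression arrays. The table the authors deposited holds log2 signals of 45037 probe sets in each array, computed with MAS5 per the submitters' processing notes, and no version, target or handling of weak signals is stated there. Detection calls were not used, and no batch was given in the labels. These values were used as they stood, with a pseudocount of 0. Their precision is limited by 2 arrays per group.

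The members, role groups and lists were chosen with earlier results of these data known. Of 45037 probe sets, 34945 had 1 symbol in the platform annotation, 932 had several and 9160 were not listed. The tests covered the 27022 probe sets whose mean log2 signal reached the 40th percentile, 5.37. limma 3.58.1 in R 4.3.3 fitted 1 mean per group to all 8 arrays (4 residual degrees of freedom), with an intensity trend in the variance prior, two-sided tests and Benjamini-Hochberg adjustment over the tested probe sets at 0.05. Errors are standard errors. The fit was also run on simulated data with independent noise and changes in CSA day 3 only, which does not test the calls given here. Values of every array are printed, per role group, for the up to 2 genes with the smallest p for CSA at day 3, at day 6 and for the DMSO course, for every gene called in the interaction and for every gene called against the majority. Other filters, quantile normalization, no trend, a floor, a pseudocount, other probe sets, a replicate block, each array left out and fits of 4 arrays were tried. Promoter windows come from RefSeq on GRCm38.p6.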

Additional observations from a re-analysis of the deposited data

Results flagged for a closer look

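The effect of CSA differed between day 3 and day 6, by the test of that difference, for 8 of the 46 replication genes. Of all genes tested, 2.36% were called above 0 and 3.43% below 0 in this test. The day 6 difference minus the day 3 difference, on the log2 scale, was 0.97 for Mcm5, 0.67 for Prim1, 0.65 for Mcm4, 0.65 for Mcm2, 0.55 for Mcm3, 0.55 for Rrm1, 0.54 for Rrm2 and 0.52 for Mcm7. In these 8 genes both CSA arrays were below both DMSO arrays at day 3, as in 28.3% of all genes. The choice of the 8 favours this, since the interaction contains the day 3 difference. At day 6 the arrays of the treatments overlapped in Mcm4, Mcm5, Prim1 and Rrm2. None of the 8 passed without the intensity trend, and Mcm5 was the one that passed with every single array left out.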

How the results depend on the processing

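Without the intensity trend, calls for CSA against DMSO came to 9 of 46 genes at day 3 (23 with it) and 1 at day 6 (4 with it). The interaction came to 0 (8 with it) and the CSA course to 6 (14 with it), and without the filter day 6 had 2. Calls over all 12529 genes dropped too without the trend. At day 3 they were 92 lower and 182 higher (692 and 895 with it), and at day 6 180 and 243 (766 and 803). The interaction had 0 (430 and 296), and the CSA course 1130 and 1811 (1984 and 2535). Without the filter, 648 of 18193 genes were called lower at day 6. With each array left out in turn, calls ranged from 16 to 22 at day 3, 0 to 1 at day 6 (5 to 9 genes with an unadjusted p under 0.05), 2 to 9 for the interaction, 7 to 13 for the CSA course and 22 to 31 for the DMSO course. The median log2 difference ranged from -0.53 to -0.47 at day 3, -0.12 to -0.09 at day 6, 0.36 to 0.50 for the interaction, -0.10 to -0.04 for the CSA course and -0.52 to -0.43 for the DMSO course. Quantile normalization gave medians of -0.14 in the CSA course and -0.59 in the DMSO course, and leaving out probe sets ending in _x_at or _s_at gave 0.38 for the interaction. Averaging all probe sets per gene turned Cdc45 in the CSA course to -0.12 and Mcm5 at day 6 to 0.47 (adjusted p = 0.0430). Calls that held under every alternative were 9 at day 3 (Mcm2, Mcm3, Mcm4, Mcm5, Mcm7, Rpa2, Prim1, Gins1 and Rfc5), 0 at day 6, 0 for the interaction, 2 in the CSA course (Rfc4 and Pole2) and 20 in the DMSO course. The causes were not tested.

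With the replicate number as a block there were 25 calls at day 3, 4 at day 6, 10 for the interaction, 15 in the CSA course and 32 in the DMSO course. Same-numbered arrays of different groups correlated at -0.003 to 0.034 in their deviations from the group means. These values show no deviation shared over the probe sets as a whole. With so few arrays per group, the correlations cannot exclude that the numbers paired the samples.

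The limits are those of 2 arrays per group, of bulk RNA and of 1 scaling by the authors. Tyms, the dimmest gene, had the largest standard error (0.552), and no value here separates the number of cells in S phase from the transcripts in each.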
